A study of Mus musculus with 27 samples.

Results

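The RNA of epididymal white adipose tissue, a visceral fat depot of the male abdomen, was sequenced in 6 libraries that compared C57BL/6N mice 4 weeks after the return from a high-fat to a normal diet with mice kept on normal diet throughout. These 6 were chosen by their diet labels, out of 27 libraries and 17821 tested genes in the study's weight-cycling series. The loss group had a high-fat diet for 8 weeks and then normal diet for 4 weeks. Its control12 group had normal diet throughout the same 12 weeks. Mice of both groups were 17 weeks old and each group had 3 libraries. To read which changes were already present before the switch, the same contrast was taken in the gain8 group, 13 weeks old after 8 weeks of a diet with 60% of its energy as fat, against the control8 group of the same age on normal diet. The maintenance group, with 8 weeks of each diet, and the control16 group, with 16 weeks of normal diet, both 21 weeks old, served as side values. The labels give 1 strain for all groups, name no genotype, and tell the groups apart only by diet and age. Total RNA of 60 to 70 mg of tissue per sample was used for TruSeq libraries. The labels do not say whether the 3 samples of a group were 3 animals or pools, so p-values measure the spread between samples.

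In obese fat, monocytes enter the tissue, mature to macrophages that surround dying adipocytes, and take up lipid. Such cells make lysosomal hydrolases and proton pump subunits, proteases, sterol-handling proteins and receptors such as Trem2, and some divide in place or fuse. Adipocytes in the same tissue store triglyceride under insulin and carry enzymes of branched-chain amino acid breakdown, and their hormone leptin tracks fat mass. The comparison of loss with control12 asks which of these transcripts still differed once the diet had been normal for 4 weeks.

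The libraries held 27128872 to 30276276 counts. Levels are CPM, counts relative to library size after TMM scaling, which compare 1 gene across libraries, and a gene was called at a Benjamini-Hochberg adjusted p under 0.05 in edgeR's quasi-likelihood test. Some libraries stood apart in their content. Of the 6, loss library 1 was poorest in adipocyte transcripts and richest in macrophage transcripts. The 26 adipocyte genes summed to 12150.0, 38822 and 27642 CPM in loss libraries 1, 2 and 3, against 59426, 52806 and 34575 CPM in control12 libraries 1, 2 and 3. The 22 macrophage genes summed to 16897, 6746 and 6516 CPM in loss and 2466, 1989 and 2362 CPM in control12. Adipoq, which encodes adiponectin and marks adipocytes, followed the adipocyte sum with 764, 3181 and 1937 CPM in loss and 5292, 4479 and 2265 CPM in control12. The label of fat tissue thus held in every library, since Adipoq and the lipid-binding Fabp4 were among abundant transcripts in all 6. Of the 6, control12 library 3 stood out in transcripts of the male tract: Cdh16, a marker of efferent duct epithelium, stood at 0, 0.0336 and 0 CPM in loss and at 0, 0 and 44.2 CPM in control12, whose library 3 also held 17.0 CPM of the protamine gene Prm2. Of 12 efferent duct and epididymis genes 8 were called lower in loss, and 0 without that library or without loss library 1. Their median log2 fold change was -7.45 with all libraries, -1.08 without control12 library 3 and -7.28 without loss library 1. Control8 held these transcripts too, with 1.54, 24.1 and 3.46 CPM of Cdh16, against 0.0711, 0 and 0 CPM in gain8. The list summed to 77.9, 30.6 and 56.4 CPM in gain8 and 56.1, 251 and 65.8 CPM in control8, 9 of its genes were called lower in gain8, and its 8 genes lower in loss are among those called lower in both comparisons. The mesothelial marker Upk3b was nearly missing from loss library 1, with 0.210, 20.3 and 7.64 CPM in loss and 35.9, 3.63 and 45.6 CPM in control12. In bulk tissue, fewer cells of a type and less RNA per cell cannot be told apart.

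At 4 weeks after the switch, 3564 of the 17821 genes (20.0%) differed between loss and control12. Of these 2096 (11.8%) were higher in loss and 1468 (8.24%) were lower. After 8 weeks of high-fat diet, 3833 genes (21.5%) differed between gain8 and control8, 2136 (12.0%) higher and 1697 (9.52%) lower. The counts for loss depended on its library 1: without it 1185 genes were called, 908 higher and 277 lower, and 907 and 274 of these had been called in the same direction with all 3. Without control12 library 3, 1560 were called higher and 785 lower. A fit of the 6 compared libraries alone called 1096 genes, 796 higher and 300 lower. On the authors' FPKM, limma called 2211 higher and 668 lower with a pseudocount of 1, and 2193 and 693 with 0.1, on a scale where the median of all genes lay at 0.09 and 0.11 log2. Taken 1 at a time against control12, with a lone library assumed to vary like the groups of 3, loss library 1 gave 4208 calls, library 2 gave 368 and library 3 gave 830. The 3 libraries shared 315 genes called higher and 9 called lower.

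Much of the change seen at the end of the high-fat diet was still measured after 4 weeks of normal diet. In both comparisons, which share no library, 1331 genes (7.47%) were called higher and 761 (4.27%) were called lower, which is 58.7% of all calls in loss and 54.6% of all calls in gain8. By direction the shared genes made up 63.5% of the genes higher in loss and 62.3% of those higher in gain8, and 51.8% of the genes lower in loss and 44.8% of those lower in gain8. Genes called in opposite directions numbered 3, all higher in gain8 and lower in loss. Among the 1331 shared higher genes, loss and control12 did not overlap in 1313, and among the 761 shared lower genes in 657. Over all tested genes, 20.0% stood apart with loss higher and 17.1% with loss lower, and an exact permutation test of 3 against 3, read on both sides, cannot go below p = 0.1 for any 1 of them. Without loss library 1, 797 of the 1331 and 209 of the 761 were still called in loss.

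The remaining change was read gene by gene. For the 2136 genes higher in gain8, the median log2 change in loss was 87.6% of the gene's change in gain8, and for the 1697 genes lower in gain8 it was 68.7%. Without loss library 1 these medians were 70.1% and 58.6%. Of the higher genes, 853 (39.9%) had a change in loss larger than in gain8, 792 (37.1%) kept 50 to 100% of it, 237 (11.1%) kept 25 to 50%, 153 (7.16%) kept less than 25%, and 101 (4.73%) lay on the other side of control12. Of the lower genes, 347 (20.4%) exceeded the change in gain8, 866 (51.0%) kept 50 to 100%, 304 (17.9%) kept 25 to 50%, 134 (7.90%) kept less, and 46 (2.71%) lay on the other side. These genes were picked for a called change in gain8, which favours large values in gain8, so the shares are descriptions.

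**Figure D1:**
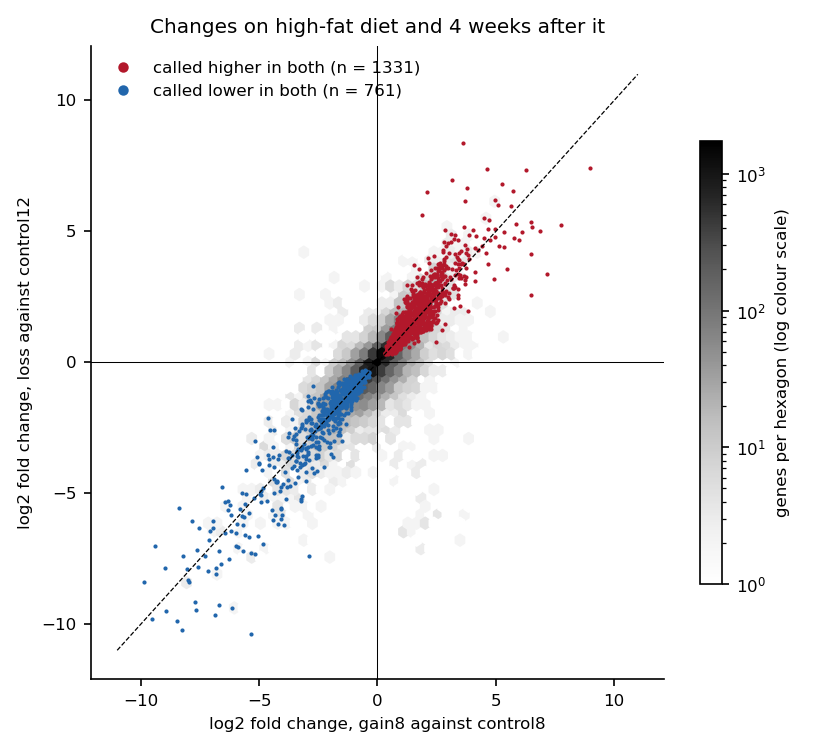
Log2 fold change of each tested gene in gain8 against control8 (x axis) and in loss against control12 (y axis), both from edgeR. Grey shading counts all genes, red points are the 1331 genes called higher in both, blue points the 761 called lower in both, and the dashed line marks equal change.

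In all 3 loss libraries the genes called in gain8 were shifted in the direction of gain8, but not to the same degree. Of the 1331 shared higher genes, 1330, 1317 and 1328 lay above all 3 control12 libraries in loss libraries 1, 2 and 3. Library 1 was the highest of the 3 for 1252 of them (94.1%), library 2 for 51 and library 3 for 28. Of the 761 shared lower genes, 712, 673 and 699 lay below all 3 control12 libraries, and library 1 was the lowest for 611 (80.3%). The shared genes were called with these same libraries, so these counts are descriptions. Over all tested genes, 38.2, 32.0 and 34.3% lay above all 3 control12 libraries in loss libraries 1, 2 and 3. Of the genes higher in gain8, picked without these libraries, 86.1, 90.5 and 81.8% did. Of those lower in gain8, 84.6, 76.8 and 75.3% lay below. The share of all tested genes lying below was not counted for single libraries. The whole set of genes higher in gain8 had median log2 CPM differences from the control12 mean of 1.21, 0.71 and 0.73 in loss libraries 1, 2 and 3. Single control12 libraries, set against the mean of the other pair, gave 0.07, -0.03 and -0.03. For genes lower in gain8 the medians were -1.11, -0.55 and -0.68 in loss and -0.10, -0.10 and 0.19 in control12. Loss library 1 thus showed the largest change, and libraries 2 and 3 lay near each other, well outside the spread of control12.

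**Figure D2:**
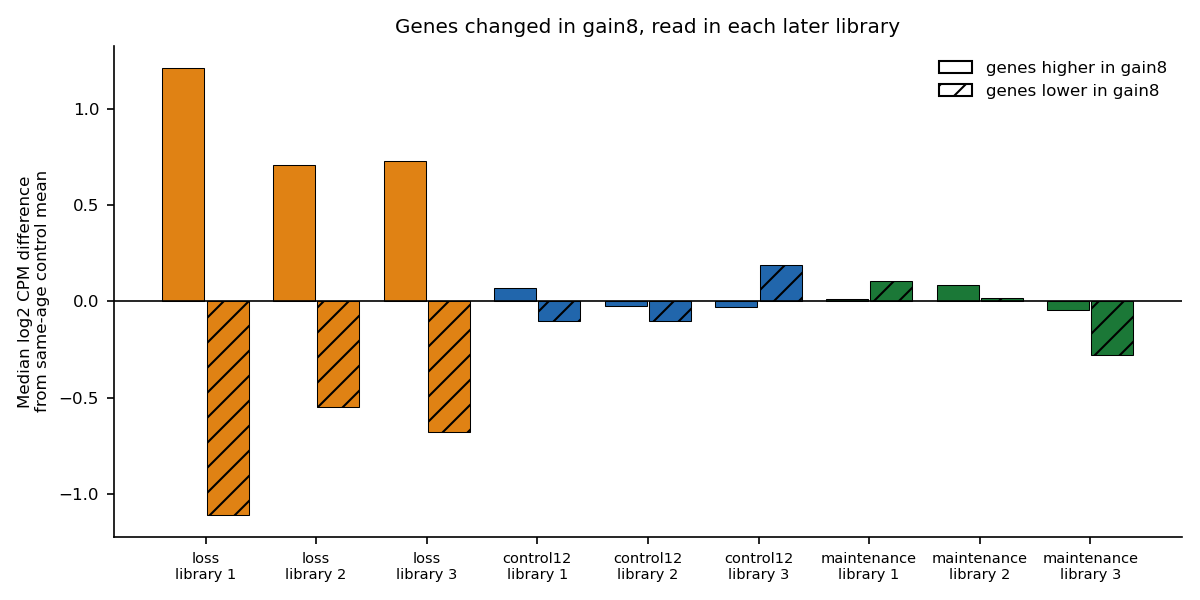
Median difference in log2 CPM over the genes called higher (2136) and lower (1697) in gain8, for each loss library against the control12 mean, each control12 library against the mean of the other pair, and each maintenance library against the control16 mean. Bars of the 3 loss libraries reach 0.71 to 1.21 and -0.55 to -1.11, and those of maintenance 0.09 and -0.28 at most.

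Several of the genes with the largest increase in both comparisons are known from lipid-filled macrophages. The genes given here were picked for no overlap between loss and control12, so their separation is a description. Mmp12 (macrophage elastase, chr9:7344381-7369499, GRCm38) stood at 8206, 646 and 1585 CPM in loss libraries 1, 2 and 3, against 19.4, 7.64 and 36.2 CPM in control12 libraries 1, 2 and 3. All 3 loss libraries lay above all 3 control12 libraries, and library 1 was far above the other pair. The log2 fold change was 7.37 ± 1.03 (SE from the fit of all 27 libraries, n = 3 per group, edgeR adjusted p = 6.88e-05), or 5.73 without loss library 1. In gain8 the levels were 391, 448 and 428 CPM against 12.5, 21.6 and 17.4 CPM in control8. Gpnmb (a lysosomal glycoprotein of foamy macrophages, chr6:49036546-49070929) had 7246, 1316 and 1953 CPM in loss and 29.2, 15.9 and 98.6 CPM in control12. It did not overlap between the groups, with a log2 fold change of 6.19 ± 0.87 (edgeR adjusted p = 6.88e-05) and of 4.98 ± 0.82 in gain8. Spp1, the cytokine osteopontin, had 625, 34.6 and 35.4 CPM in loss and 1.47, 0.267 and 7.69 CPM in control12. Its fold change of 6.17 ± 1.22 on the log2 scale (edgeR adjusted p = 0.00134) was 3.45 without loss library 1, and the call ended in a fit of the 6 libraries alone. Rgs1, a brake on G-protein signalling in leukocytes, had 142, 77.2 and 63.7 CPM in loss and 1.32, 0.611 and 4.13 CPM in control12 (log2 fold change 5.51 ± 0.88, edgeR adjusted p = 0.000202). Il1rn, the antagonist of the interleukin-1 receptor, had 264, 27.3 and 65.8 CPM in loss and 2.01, 0.535 and 5.54 CPM in control12 (log2 fold change 5.44 ± 0.87). In both genes the lowest loss library lay above every control12 library.

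Other shared higher genes of the same size are not macrophage markers in common use. Serpinb9b, a relative of the granzyme B inhibitor Serpinb9, had 449, 8.26 and 35.4 CPM in loss and 0.387, 0.458 and 0.598 CPM in control12. Library 1 held most of it, and the log2 fold change of 8.39 ± 1.10 (edgeR adjusted p = 4.41e-05) was 5.48 without that library. Gpr50, an orphan relative of the melatonin receptors, showed another order, with 8.00, 41.9 and 11.6 CPM in loss and 0.0387, 0.0764 and 0.209 CPM in control12 (log2 fold change 7.42 ± 1.79, edgeR adjusted p = 0.00622). Myh15, a myosin heavy chain, had 6.01, 18.8 and 10.3 CPM in loss and 0, 0 and 0.180 CPM in control12. For these last genes loss library 2 was the highest, not library 1, and because control12 lay near 0 the size of their fold change is uncertain.

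**Figure D3:**
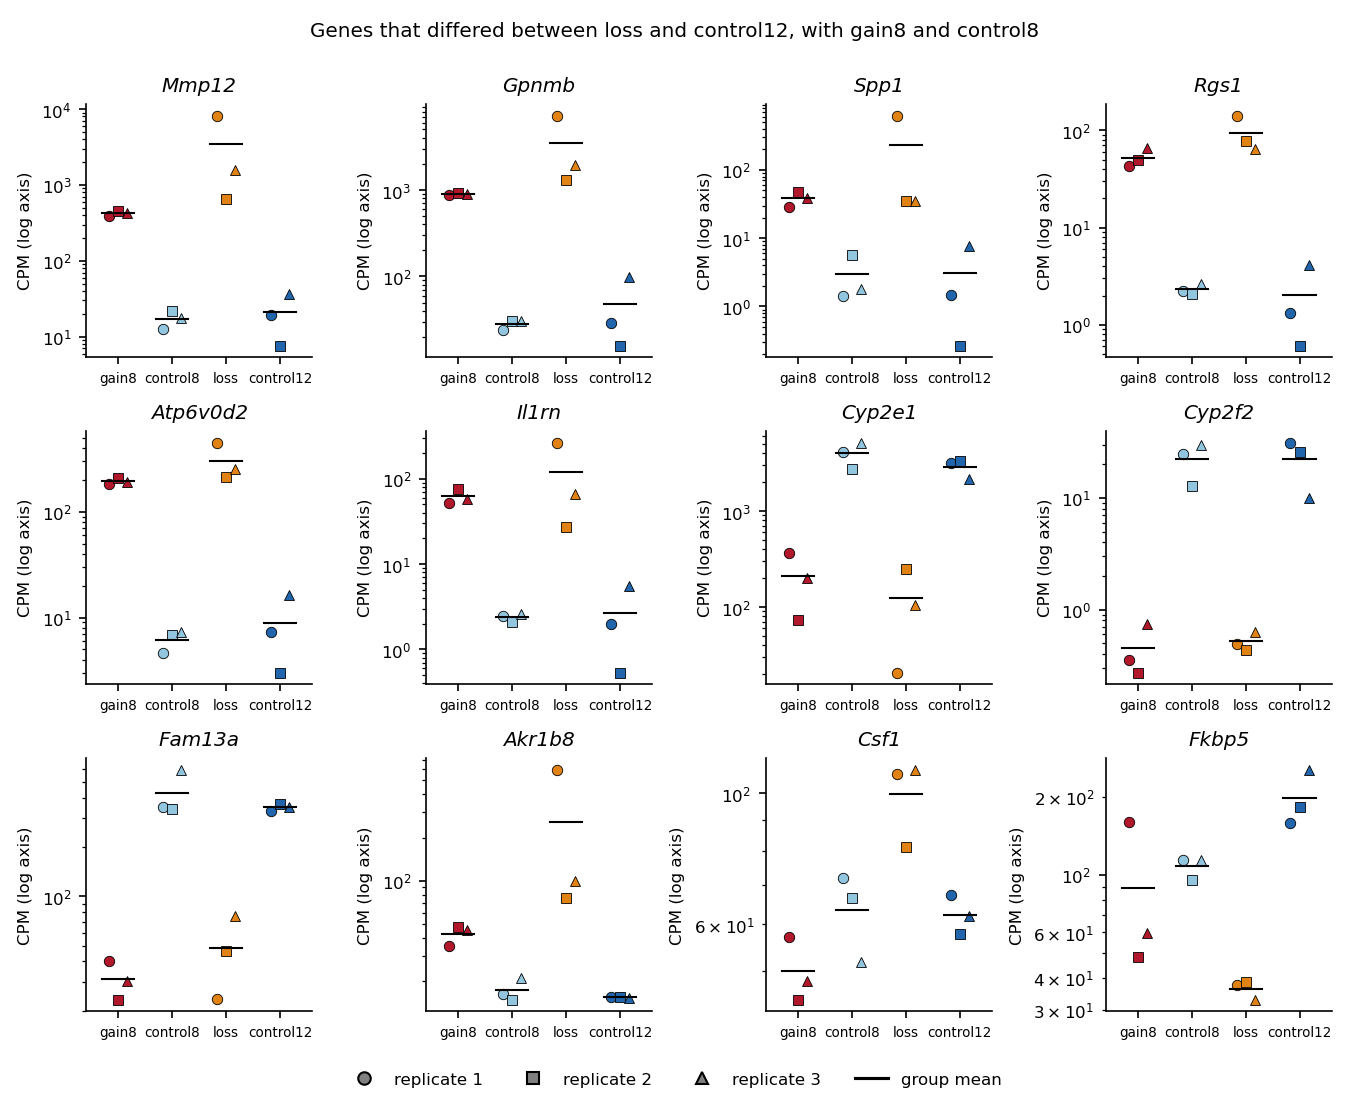
CPM on a log axis in each library of gain8, control8, loss and control12 for 12 genes; each point is 1 library and the 3 points of a group are its replicates. Mmp12, Gpnmb, Spp1, Rgs1, Atp6v0d2, Il1rn, Akr1b8 and Csf1 are higher in loss, and Cyp2e1, Cyp2f2, Fam13a and Fkbp5 are lower, with no overlap between loss and control12 in any of them.

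Macrophage gene lists were higher in loss as a group. Of 22 macrophage markers, 17 rose and 0 fell, where 11.8% of all tested genes rose and 8.24% fell, with a median log2 fold change of 2.42 beside -0.04 over all tested genes. Without loss library 1, 13 passed. Medians for the single libraries were 3.20, 1.59 and 1.88, and library 1, the highest, also had the lowest sum of adipocyte transcripts, whose part in this and the following lists was not tested. Emr1, which encodes the F4/80 antigen, had 628, 304 and 351 CPM in loss and 66.7, 56.9 and 74.3 CPM in control12, with every loss library above every control12 library. Of 20 genes of lipid-associated macrophages 16 rose and 0 fell (median 2.71, 14 without loss library 1). Among them Lgals3, the galactose-binding lectin galectin-3, had 3098, 1451 and 1347 CPM in loss and 184, 98.5 and 159 CPM in control12 (log2 fold change 3.74 ± 0.47, edgeR adjusted p = 3.76e-05). Of 17 genes of resident macrophages 1 rose and 6 fell (median -0.78), and 1 fell without loss library 1. The 28 T and NK cell genes had 3 higher and 0 lower calls, and the 24 interferon-induced genes 2 and 0, shares near or below the background.

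Genes known from osteoclasts and from macrophage fusion formed a second set. Of 18 tested, 12 rose and 2 fell (median 1.44), with 11 and 1 without loss library 1. Dcstamp, a membrane protein needed for osteoclast fusion, had 30.1, 6.92 and 10.8 CPM in loss and 0.271, 0.305 and 0.808 CPM in control12 (log2 fold change 5.07 ± 0.72, edgeR adjusted p = 7.48e-05). Atp6v0d2 (chr4:19876841-19922605), a proton pump subunit also required for fusion in mice, had 450.2, 211 and 253 CPM in loss and 7.32, 3.02 and 16.3 CPM in control12. Its log2 fold change of 5.09 ± 0.80 (edgeR adjusted p = 0.000184) lay close to that in gain8, 4.96 ± 0.80, and the difference was 0.13 ± 0.97. Tnfrsf11a, the receptor of the osteoclast factor RANKL, had 77.8, 30.9 and 46.7 CPM in loss and 5.54, 5.96 and 10.6 CPM in control12. Tcirg1, the osteoclast form of the pump's large membrane subunit, had 613, 220.0 and 219 CPM in loss and 53.1, 44.8 and 53.2 CPM in control12. Cd44, the hyaluronan receptor, had 532, 167 and 232 CPM in loss and 36.3, 22.1 and 31.4 CPM in control12. Dcstamp and Atp6v0d2 had been picked for no overlap between loss and control12. In all 5 genes the groups did not overlap, each loss library was called on its own, and library 1 was highest.

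Lysosomal genes rose together. Of 30 genes for hydrolases, membrane proteins and proton pump subunits, 24 rose and 0 fell (median 0.93), against 23 and 0 in gain8. Without loss library 1, 15 passed, and the medians for loss libraries 1, 2 and 3 were 1.45, 0.66 and 0.63. Gla, alpha-galactosidase A, had 121, 36.7 and 48.9 CPM in loss and 8.48, 7.26 and 10.6 CPM in control12 (log2 fold change 2.97 ± 0.33, edgeR adjusted p = 2.27e-05). Lipa, the acid lipase that frees cholesterol and fatty acids in lysosomes, had 2041, 519 and 782 CPM in loss and 124, 143 and 147 CPM in control12 (log2 fold change 3.01 ± 0.37). Gusb, beta-glucuronidase, had 654, 264 and 338 CPM in loss and 106, 86.7 and 71.0 CPM in control12, and its change of 2.25 ± 0.25 lay beside 2.19 ± 0.25 in gain8. In all 3 genes loss and control12 did not overlap. Tfeb and Mitf, which encode transcription factors of lysosomal genes, had log2 fold changes of 1.27 ± 0.21 (edgeR adjusted p = 0.000333) and 1.36 ± 0.27 (edgeR adjusted p = 0.00143).

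TFEB and MITF bind the core TCACGTG, which also reads as CACGTGA on the other strand. It was searched on both strands from 250 bases before to 50 after the start of each gene in RefSeq's promoter table (GRCm38.p6). It was present in 10 of the 21 lysosomal genes with a promoter there (47.6%): Atp6v0d1, Atp6v1a, Ctsa, Ctsd, Gaa, Gla, Glb1, Lamp1, Mcoln1 and Naglu. All but Gaa and Mcoln1 were called higher in loss, the same share as the 24 of 30 in the whole list. The motif was in 770 of the 12185 tested genes with a promoter there (6.32%) and in 1237 of all 32851 promoters (3.77%). A gene was counted if any of its promoters held the motif, here and below. Shares of genes and shares of single promoters are thus not like for like. Of the shared higher genes 92 of 996 held it (9.24%), and of the shared lower genes 27 of 528 (5.11%). A match describes these letters in this window and shows no binding. Promoters of 4 hydrolase, membrane and pump genes that rose in loss are given 5′ to 3′ on the gene's strand, with capitals on the motif, and TCACGTGA holds it on both strands. They are Gla (chrX:134600956-134601255, minus strand), Ctsd, the protease cathepsin D (chr7:142387778-142388077, minus strand), Lamp1, a main protein of the lysosomal membrane (chr8:13158911-13159210, plus strand), and Atp6v0d1, a proton pump subunit (chr8:105566015-105566314, minus strand).
Gla: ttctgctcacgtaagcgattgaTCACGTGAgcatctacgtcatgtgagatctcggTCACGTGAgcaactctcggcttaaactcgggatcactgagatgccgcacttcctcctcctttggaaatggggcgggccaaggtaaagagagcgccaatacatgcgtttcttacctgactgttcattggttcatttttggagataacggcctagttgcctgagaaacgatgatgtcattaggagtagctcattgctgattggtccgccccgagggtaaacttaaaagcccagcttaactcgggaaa
Ctsd: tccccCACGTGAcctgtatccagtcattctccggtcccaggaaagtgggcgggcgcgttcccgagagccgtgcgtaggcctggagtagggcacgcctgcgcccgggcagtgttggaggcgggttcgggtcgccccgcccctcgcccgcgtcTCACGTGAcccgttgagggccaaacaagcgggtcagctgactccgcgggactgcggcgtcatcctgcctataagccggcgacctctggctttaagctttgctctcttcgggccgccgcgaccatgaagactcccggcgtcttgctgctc
Lamp1: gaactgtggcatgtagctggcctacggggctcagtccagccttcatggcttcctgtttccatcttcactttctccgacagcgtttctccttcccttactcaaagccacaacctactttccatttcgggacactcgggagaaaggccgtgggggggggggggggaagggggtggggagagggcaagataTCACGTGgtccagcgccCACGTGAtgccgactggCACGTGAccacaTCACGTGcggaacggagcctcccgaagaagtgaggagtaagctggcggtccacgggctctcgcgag
Atp6v0d1: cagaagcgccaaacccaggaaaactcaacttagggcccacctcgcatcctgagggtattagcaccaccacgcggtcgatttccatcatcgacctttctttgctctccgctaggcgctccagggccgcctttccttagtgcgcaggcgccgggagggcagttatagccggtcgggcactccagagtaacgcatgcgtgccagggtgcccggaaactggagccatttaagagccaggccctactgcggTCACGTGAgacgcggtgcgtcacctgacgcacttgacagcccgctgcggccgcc
Gla and Ctsd each hold 2 stretches in capitals, Lamp1 holds 4 and Atp6v0d1 holds 1. The last 3 genes were chosen for their promoters after their values were seen. Ctsd had 9455, 4231 and 3689 CPM in loss and 3038, 2462 and 1236 CPM in control12 (log2 fold change 1.37 ± 0.31). Lamp1 had 1776, 976 and 993 CPM in loss and 656, 633 and 579 CPM in control12 (log2 fold change 1.003 ± 0.19). Atp6v0d1 had 178, 139 and 131 CPM in loss and 129.6, 116 and 97.9 CPM in control12 (log2 fold change 0.38 ± 0.13). The groups did not overlap in any of them, and Atp6v0d1 was the narrowest case.

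Matrix proteases were among the genes that rose. Of 21 metalloproteinase, cathepsin and inhibitor genes 11 rose and 1 fell in loss (median 1.53), 7 and 1 in gain8, and 8 and 1 in loss without its library 1. Beside Mmp12, Adam8, a membrane protease of myeloid cells, had 1003, 209.8 and 286 CPM in loss and 11.3, 4.66 and 28.6 CPM in control12 (log2 fold change 5.07 ± 0.81, edgeR adjusted p = 0.000198). Mmp19, a secreted matrix metalloproteinase, had 434, 155 and 147 CPM in loss and 43.3, 29.4 and 35.5 CPM in control12 (log2 fold change 2.76 ± 0.42). Both were above control12 in every loss library.

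Receptors of innate immunity and the signalling chain of Fc receptors rose in loss. Of 22 innate receptor genes 16 rose and 0 fell (median 1.73), against 10 and 0 in gain8, but 8 passed without loss library 1, and the library medians were 2.19, 0.58 and 1.09. Cd180, a Toll-like receptor homologue, had 123, 39.8 and 66.3 CPM in loss and 4.06, 3.28 and 8.98 CPM in control12 (log2 fold change 3.80 ± 0.45, edgeR adjusted p = 3.07e-05). Tlr13, an endosomal receptor for bacterial ribosomal RNA, had 281, 59.4 and 84.3 CPM in loss and 7.32, 5.08 and 13.9 CPM in control12 (log2 fold change 4.01 ± 0.63). In Cd180 and Tlr13 the loss libraries lay above control12 without overlap. Of 15 genes of Fc receptors and their kinases 12 rose and 0 fell (median 1.68, 6 without loss library 1).

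Chemokines, their receptors and cytokines followed. Of 28 chemokine and receptor genes 13 rose and 1 fell (median 1.03), with 8 and 0 without loss library 1. Ccl2, the main monocyte attractant, had 88.8, 25.1 and 40.7 CPM in loss and 3.83, 2.37 and 3.71 CPM in control12 (log2 fold change 3.96 ± 0.54, edgeR adjusted p = 5.29e-05). Its relative Ccl7 had 37.4, 22.8 and 22.0 CPM in loss and 3.64, 1.60 and 2.96 CPM in control12. Loss library 1 was highest in both genes, and libraries 2 and 3 also stood above control12. Of 24 cytokine genes 13 rose and 0 fell (median 0.90, 8 without loss library 1). Casp1, the protease that matures interleukin-1 beta, had 77.4, 39.3 and 42.5 CPM in loss and 12.3, 9.28 and 8.05 CPM in control12 (log2 fold change 2.43 ± 0.29). Tnf had 10.6, 2.82 and 3.87 CPM in loss and 0.310, 0.382 and 0.718 CPM in control12 (log2 fold change 3.59 ± 0.62, edgeR adjusted p = 0.000416).

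Some genes that handle cholesterol and other lipids stayed higher, while their list as a whole was near level. Of its 20 genes 5 rose and 1 fell, with a median of 0.25 and library medians of 0.58, 0.14 and 0.12, and its sum was 6469, 7666 and 6366 CPM in loss and 6745, 6722 and 6521 CPM in control12. Soat1, which esterifies cholesterol for storage, had 297, 108 and 128 CPM in loss and 22.6, 13.9 and 30.6 CPM in control12 (log2 fold change 2.99 ± 0.44, edgeR adjusted p = 9.83e-05). Nceh1, which hydrolyses cholesteryl esters, had 293, 114 and 133 CPM in loss and 16.3, 13.4 and 26.96 CPM in control12 (log2 fold change 3.25 ± 0.45). Pltp, the phospholipid transfer protein, had 874, 750.1 and 644 CPM in loss and 243, 229.5 and 274 CPM in control12 (log2 fold change 1.60 ± 0.29). Cyp27a1, which oxidises the side chain of cholesterol, was the lower one, with 28.1, 72.5 and 46.2 CPM in loss and 110.2, 104 and 96.3 CPM in control12 (log2 fold change -1.08 ± 0.23). Plin2, a lipid droplet coat protein found in most cells, had 1976, 1357 and 978 CPM in loss and 597, 578 and 415 CPM in control12 (log2 fold change 1.44 ± 0.29), and 2.25 ± 0.30 in gain8. In all 5 genes loss and control12 did not overlap.

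Genes of DNA replication and mitosis were called higher in nearly the whole list. Of 30 cell cycle genes 28 rose and 0 fell in loss (median 1.64), and 29 and 0 in gain8. Without loss library 1, 20 passed, and the medians in loss libraries 1, 2 and 3 were 2.16, 0.80 and 1.61. Cdt1, which loads the replicative helicase onto DNA, had 22.5, 9.47 and 11.4 CPM in loss and 2.48, 2.48 and 4.07 CPM in control12 (log2 fold change 2.26 ± 0.31, edgeR adjusted p = 5.90e-05). Mcm5, a subunit of that helicase, had 46.1, 15.2 and 28.3 CPM in loss and 4.80, 4.66 and 7.48 CPM in control12 (log2 fold change 2.40 ± 0.36). Birc5, the mitotic protein survivin, had 9.43, 7.53 and 9.10 CPM in loss and 1.74, 1.83 and 1.83 CPM in control12 (log2 fold change 2.27 ± 0.36). The groups did not overlap in any of the 3, and in Birc5 the 3 loss libraries lay close together.

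E2F factors, which drive many of these genes, bind TTTGGCG, which reads as CGCCAAA on the other strand, and also TTCCCGC, which reads as GCGGGAA there. In the same window, 26 of the 30 genes had a promoter in the table. TTTGGCG was found in 4 of the 26 (15.4%), Cdt1, Mcm3, Mcm5 and Mcm6, against 339 of 12185 tested genes (2.78%) and 514 of all promoters (1.56%). TTCCCGC was found in Cdc6, Cdt1, Mcm3 and Rrm1, again 4 of 26, against 1096 of the tested genes (8.99%) and 1511 of all promoters (4.60%). Of the shared higher and shared lower genes, 3.11 and 2.27% held TTTGGCG, and 8.23 and 7.95% held TTCCCGC, near the shares of tested genes. Cdt1 (chr8:122567765-122568064, plus strand, GRCm38.p6, RefSeq) holds 1 stretch of each motif and Mcm5 (chr8:75109259-75109558, plus strand) holds TTTGGCG, in capitals on either strand.
Cdt1: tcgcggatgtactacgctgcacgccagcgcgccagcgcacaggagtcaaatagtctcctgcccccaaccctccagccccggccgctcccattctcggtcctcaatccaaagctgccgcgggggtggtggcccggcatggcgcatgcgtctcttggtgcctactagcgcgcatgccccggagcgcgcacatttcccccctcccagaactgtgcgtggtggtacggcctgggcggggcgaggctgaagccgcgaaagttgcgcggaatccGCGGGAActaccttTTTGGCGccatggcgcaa
Mcm5: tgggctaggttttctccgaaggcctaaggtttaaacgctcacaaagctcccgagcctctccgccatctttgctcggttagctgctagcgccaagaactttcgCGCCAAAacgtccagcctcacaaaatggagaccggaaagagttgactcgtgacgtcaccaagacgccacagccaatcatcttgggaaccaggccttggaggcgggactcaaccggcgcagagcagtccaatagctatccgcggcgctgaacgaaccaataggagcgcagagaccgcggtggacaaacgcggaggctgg

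Immediate early genes, which respond within minutes to stimuli and to tissue handling, were partly higher. Of 25 tested 10 rose and 0 fell (median 0.61), and 7 rose without loss library 1. Egr2, a transcription factor also induced in activated macrophages, had 89.4, 26.9 and 35.0 CPM in loss and 2.86, 1.18 and 2.27 CPM in control12 (log2 fold change 4.58 ± 0.46, edgeR adjusted p = 1.56e-05), without overlap. The AP-1 motif TGACTCA, which reads as TGAGTCA on the other strand, was in 0 of the 20 members with a promoter, in 609 of the tested genes (5.00%) and in 1709 of all promoters (5.20%). Of the shared higher and shared lower genes, 6.33 and 5.68% held it.

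Cyp2e1 and Cyp2f2 were among the genes with the largest decrease in loss, out of those also lower in gain8 and without loss library 1. Both were picked for no overlap between loss and control12. Cyp2e1 (chr7:140763739-140774987), a cytochrome P450 that oxidises small molecules and fatty acids, stood at 20.7, 247 and 105 CPM in loss libraries 1, 2 and 3, against 3148, 3349.6 and 2172 CPM in control12 libraries 1, 2 and 3. All loss libraries lay far below all control12 libraries, with library 1 lowest. The log2 fold change was -4.54 ± 0.83 (edgeR adjusted p = 0.000698), -4.04 without loss library 1 and -4.24 ± 0.82 in gain8. Cyp2e1 is also a liver gene, and the liver markers Alb and Ttr had 0.908, 4.60 and 14.0 and 0, 0 and 1.36 CPM in loss, against 21.6, 17.9 and 9.28 and 0.0387, 0 and 0.0898 CPM in control12. Cyp2f2, another cytochrome P450, had 0.489, 0.437 and 0.628 CPM in loss and 31.2, 25.7 and 10.02 CPM in control12 (log2 fold change -5.41 ± 0.96, edgeR adjusted p = 0.000505). Its 3 loss libraries were nearly equal. Fam13a (chr6:58932090-59024549), a gene tied to body fat distribution in people and a member of the list of adipocyte regulators, had 23.5, 46.2 and 75.6 CPM in loss and 332, 367 and 354 CPM in control12 (log2 fold change -2.86 ± 0.49, edgeR adjusted p = 0.000407). Its change in gain8 was -3.78 ± 0.51, and loss library 3 was the nearest to control12.

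Transcripts of lower level showed the same separation. Mycl, of the Myc family of transcription factors, had 1.85, 12.9 and 5.19 CPM in loss and 63.5, 78.9 and 120.0 CPM in control12 (log2 fold change -3.72 ± 0.78, edgeR adjusted p = 0.00215). Col4a3, a basement membrane collagen chain, had 0.454, 0.974 and 0.893 CPM in loss and 5.77, 6.30 and 16.5 CPM in control12 (log2 fold change -3.61 ± 0.48, edgeR adjusted p = 5.08e-05). It was called lower in each loss library alone, which held for 9 genes in all. Acsm3, a medium-chain acyl-CoA synthetase, had 0.384, 1.78 and 1.59 CPM in loss and 14.1, 25.4 and 16.3 CPM in control12 (log2 fold change -3.88 ± 0.80). Ripk4, a kinase of epithelial differentiation, had 0.175, 0.605 and 0.728 CPM in loss and 6.23, 6.38 and 15.1 CPM in control12 (log2 fold change -4.18 ± 0.67). Eif4ebp3, an inhibitor of translation initiation, had 0.279, 1.18 and 0.695 CPM in loss and 12.9, 13.1 and 12.6 CPM in control12 (log2 fold change -4.16 ± 0.88), with a nearly constant control12. Npnt, a basement membrane protein that binds integrins, had 0.489, 1.61 and 0.595 CPM in loss and 5.38, 14.8 and 23.1 CPM in control12 (log2 fold change -4.00 ± 0.85). Clic6, of the chloride intracellular channel family, had 0.0699, 0.168 and 0.132 CPM in loss and 1.43, 2.63 and 30.9 CPM in control12 (log2 fold change -6.51 ± 1.08, edgeR adjusted p = 0.000278). Control12 library 3, which held male tract transcripts, was the highest for Mycl, Col4a3, Ripk4, Npnt and Clic6. In all 7 genes the other control12 libraries also lay above every loss library, but the rule that picked these genes required this. Adcy8, a brain-type adenylate cyclase, by contrast rested on that library, with 0, 0 and 0.0331 CPM in loss and 0.0387, 0.0382 and 32.8 CPM in control12, and its call ended without it.

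The decreases that each loss library showed on its own were few, and all 9 genes are given here because of that count, with their values already seen. Beside Col4a3 they were Slc2a3, Slc20a2, Pla2g2d, Siglech, Lama1, Ppp4r4, Mucl1 and 1 unnamed transcript, 2810454H06Rik, and all 9 were also called lower in gain8. Slc2a3, the high-affinity glucose transporter GLUT3, had 7.30, 7.56 and 8.40 CPM in loss and 25.9, 24.9 and 25.5 CPM in control12 (log2 fold change -1.71 ± 0.26, edgeR adjusted p = 0.000154), and its change in gain8 was -2.32 ± 0.27. Slc20a2, a sodium-dependent phosphate transporter, had 29.0, 34.0 and 32.0 CPM in loss and 56.1, 59.1 and 56.4 CPM in control12 (log2 fold change -0.85 ± 0.10, edgeR adjusted p = 3.07e-05). In both the 3 loss libraries lay close together, library 1 included. Pla2g2d, a secreted phospholipase of regulatory immune cells, had 1.08, 2.82 and 4.50 CPM in loss and 18.8, 20.6 and 18.6 CPM in control12 (log2 fold change -2.78 ± 0.34). Siglech, a lectin of plasmacytoid dendritic cells, had 0.664, 0.873 and 0.728 CPM in loss and 8.90, 5.61 and 3.86 CPM in control12 (log2 fold change -3.01 ± 0.40). Lama1, a laminin chain of basement membranes, had 0.175, 0.101 and 0 CPM in loss and 1.78, 3.32 and 6.19 CPM in control12. In the genes with values given here no loss library reached the control12 range, which their pick had nearly fixed in advance.

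Adipocyte lists held more lower than higher calls, fewer without loss library 1. Of 26 adipocyte markers 0 rose and 5 fell (median -0.73), with library medians of -1.66, -0.22 and -0.41 and 1 call without library 1. Of 26 regulators of adipocyte differentiation 0 rose and 11 fell (median -0.76), against 1 and 6 in gain8 and 4 lower calls without loss library 1. Their library medians were -1.27, -0.77 and -0.48, and the median without library 1 was -0.57. Of 22 genes of insulin signalling 2 rose and 7 fell (median -0.38), with 0 and 4 and a median of -0.31 without loss library 1. Grb10, an adaptor that restrains the insulin receptor, had 38.0, 48.1 and 59.7 CPM in loss and 112, 114 and 105 CPM in control12 (log2 fold change -1.18 ± 0.23, edgeR adjusted p = 0.00115). Slc2a4, the insulin-dependent glucose transporter GLUT4, had 55.2, 87.7 and 151 CPM in loss and 104, 107 and 90.0 CPM in control12, overlapping and not called (edgeR adjusted p = 0.973). Of 22 enzymes that degrade branched-chain amino acids 0 rose and 8 fell (median -0.63), with 4 lower calls without loss library 1 and 0 in a fit of the 6 libraries alone. The 21 lipolysis genes had 2 lower calls and the 20 lipogenesis genes 2, in both cases with 0 higher, shares near the 8.24% of all tested genes. The lipogenesis median was -0.24, with library medians of -1.03, 0.14 and -0.40. Its sum, in which abundant genes weigh most, was 5644, 29314 and 14463 CPM in loss and 70392, 57765 and 37388 CPM in control12.

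Mitochondrially encoded transcripts were lower in loss, while nuclear genes of the same complexes were not called. Of 13 mitochondrial transcripts 0 rose and 9 fell (median -1.32), with library medians of -1.39, -0.89 and -1.47, so that loss library 1 did not stand apart. The list had 0 higher and 3 lower calls in gain8, and 5 in loss without library 1 and 2 when the 6 libraries were fitted alone. Their sum was 17136, 26371 and 18013 CPM in loss and 62034, 60426 and 30313 CPM in control12, where library 3 had the lowest value. Of 35 nuclear respiratory chain genes 0 rose and 0 fell (median -0.19). Ribosomal protein genes, 30 in number, were also without a call, though in 30 of them all loss libraries lay above all control12 libraries (median 0.47). Over all tested genes 20.0% did so, and the median of the ribosomal list in gain8 was 0.46. Lars2, at whose locus reads resembling ribosomal RNA collect, was at 2849.7, 116 and 2789 CPM in loss and 212, 3159 and 2459 CPM in control12, high and low in both groups, and its part in these lists was not tested.

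**Figure D4:**
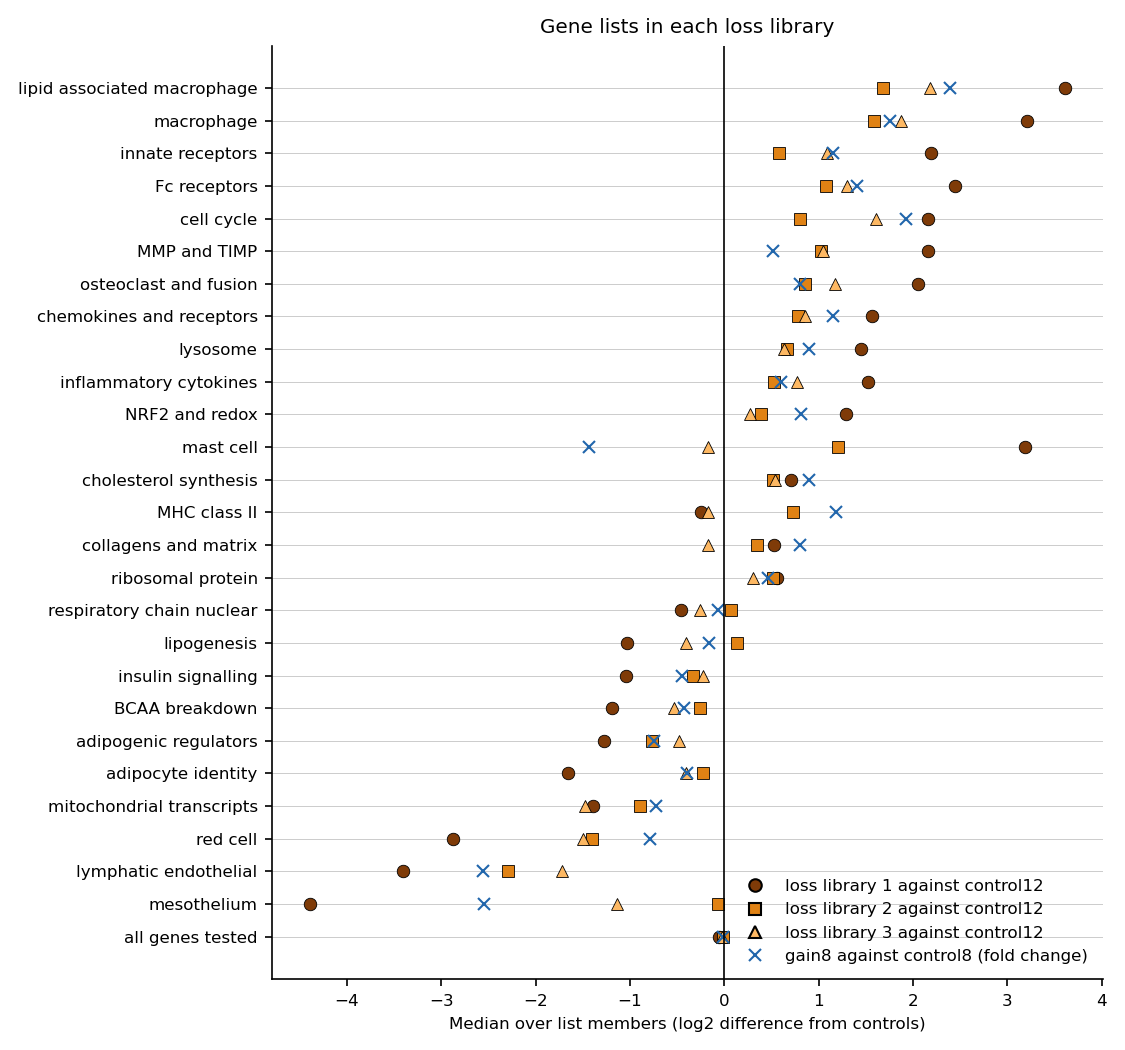
Median log2 CPM difference from control over the tested members of 26 gene lists and over all tested genes; filled symbols are loss libraries 1, 2 and 3 against the control12 mean, and crosses are the median fold change in gain8 against control8. Macrophage, lysosome and cell cycle lists lie to the right in all 3 loss libraries, with library 1 farthest, and mitochondrial transcripts lie to the left in all 3.

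Some changes of the high-fat diet were small 4 weeks later. Genes of this kind were picked by a loss change under 25% of the gain8 change, so their nearness to control12 is a description. Lep, which encodes leptin, had 4205, 5657 and 6338 CPM in gain8 and 952, 715 and 817 CPM in control8, a log2 fold change of 2.71 ± 0.68 (edgeR adjusted p = 0.00744). In loss it had 1086, 2216 and 1645 CPM, against 1691, 1336 and 1147 CPM in control12, so the groups overlapped and the log2 fold change was 0.24 ± 0.64 (edgeR adjusted p = 0.818). Tmed5, a carrier in the early secretory pathway, was at 158, 152 and 159 CPM in loss and 162, 157 and 116 CPM in control12, with 0.11 ± 0.15 in loss and 1.15 ± 0.16 in gain8 on the log2 scale. Cab39l, a scaffold of the kinase LKB1, was at 66.7, 73.7 and 71.9 CPM in loss and 72.8, 70.9 and 65.0 CPM in control12, with 0.03 ± 0.13 in loss and 0.68 ± 0.13 in gain8. Higd2a, a respiratory chain assembly factor, was at 35.2, 60.8 and 37.8 CPM in loss and 56.3, 48.4 and 38.3 CPM in control12, with -0.09 ± 0.21 in loss and 1.05 ± 0.21 in gain8. Among genes lower in gain8, Slc16a7, a transporter of monocarboxylates, was at 17.5, 17.1 and 24.8 CPM in loss and 18.2, 21.9 and 23.8 CPM in control12, with -0.11 ± 0.18 in loss and -1.34 ± 0.18 in gain8. Loss library 1 was inside or next to the control12 range in Tmed5 and Slc16a7.

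The test of the difference between the changes in loss and in gain8 called 0 of 17821 genes with edgeR, with a smallest adjusted p of 0.257 and 1231 genes at an unadjusted p under 0.05. DESeq2 called 33. With 3 libraries left out together edgeR called 9, without loss library 2 it called 6, and limma on log2(FPKM + 1) called 3, so the count of 0 belongs to edgeR on all libraries. For Lep the difference was -2.46 ± 0.91 (edgeR adjusted p = 0.626). Tmed5 had a difference of -1.04 ± 0.22 (edgeR adjusted p = 0.282) and Slc16a7 of 1.23 ± 0.26.

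**Figure D5:**
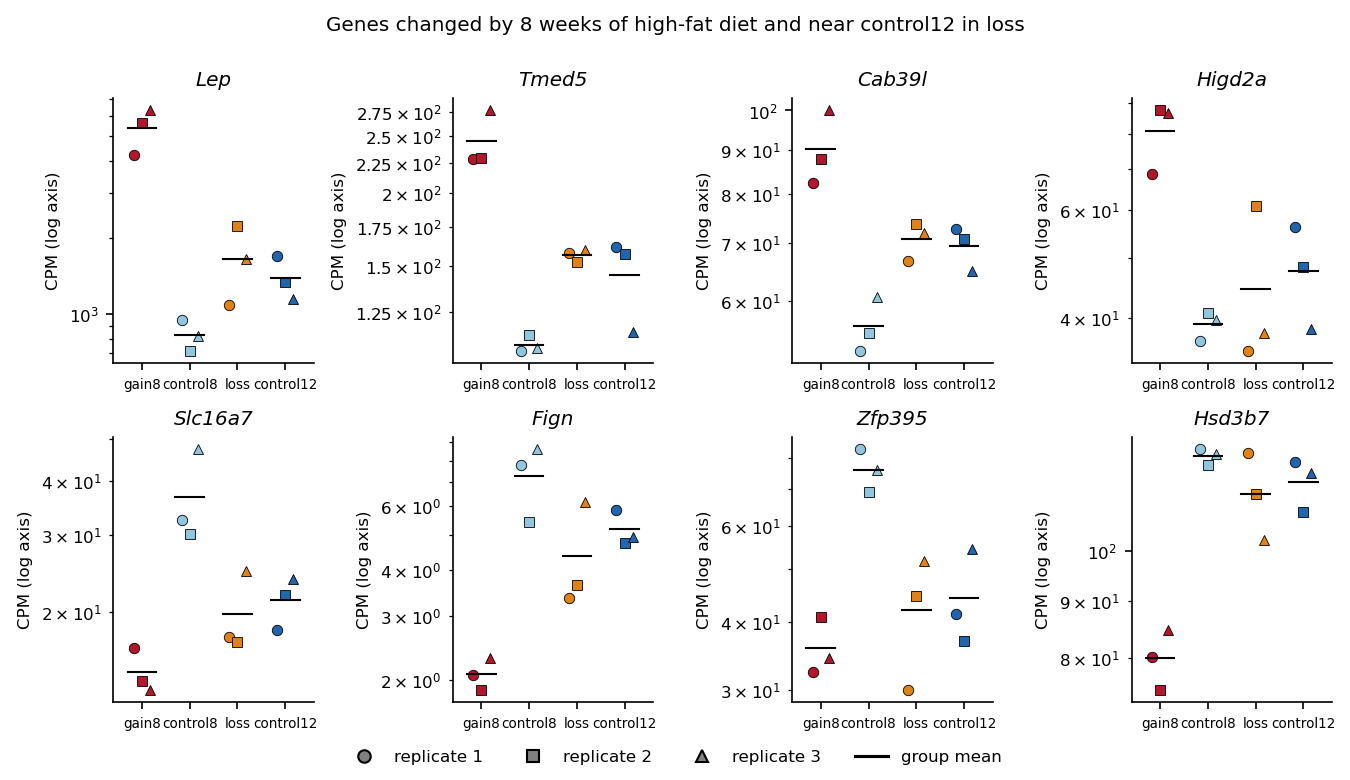
CPM on a log axis in each library of gain8, control8, loss and control12 for 8 genes called in gain8 with a small change in loss; each point is 1 library. Lep, Tmed5, Cab39l and Higd2a are higher in gain8 and Slc16a7, Fign, Zfp395 and Hsd3b7 lower, while loss lies near control12 in all 8.

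By lists, antigen presentation, matrix and clock genes had fewer calls in loss than in gain8, a contrast that was not tested as such. Of 11 genes of MHC class II presentation 2 rose in loss and 6 in gain8, and the median was 0.03 in loss and 1.18 in gain8. Cd74, the invariant chain, and H2-Ab1, a beta chain, are shown after their values were seen. Cd74 had 621, 1449 and 877 CPM in loss and 1001, 985 and 991 CPM in control12, a change of -0.01 ± 0.34, and 1.23 ± 0.34 in gain8. H2-Ab1 had 209, 534 and 305 CPM in loss and 355, 347 and 328 CPM in control12, a change of 0.03 ± 0.36, and 1.31 ± 0.37 in gain8. The members called in loss were Ctss, the protease that trims the invariant chain, and H2-DMb1, of the peptide exchanger. Ctss had 1874, 714 and 759.8 CPM in loss and 106, 68.8 and 137 CPM in control12 (log2 fold change 3.42 ± 0.51). H2-DMb1 had 50.2, 88.9 and 57.0 CPM in loss and 25.1, 24.2 and 32.1 CPM in control12 (log2 fold change 1.27 ± 0.30). Of 32 collagen and matrix genes 2 rose and 1 fell in loss, against 12 and 2 in gain8, and their medians were 0.38 and 0.81. Col6a3, a microfibrillar collagen chain chosen after its values were seen, had 444, 363 and 243 CPM in loss and 268, 179.6 and 154 CPM in control12, a change of 0.80 ± 0.35, and 1.46 ± 0.36 in gain8. Of 19 clock genes 1 rose and 3 fell in loss and 0 and 6 in gain8.

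Other genes called in loss, with groups that did not overlap, had a larger estimated change in loss than in gain8, although edgeR on all libraries called none of these differences. Akr1b8, an aldo-keto reductase, had 594, 76.5 and 100.3 CPM in loss and 15.6, 15.4 and 15.2 CPM in control12, with control12 nearly constant and every loss library well above it. Its log2 fold change was 4.06 ± 0.52 (edgeR adjusted p = 4.22e-05) in loss, 2.52 without loss library 1, and 1.29 ± 0.47 in gain8 (edgeR adjusted p = 0.0542). Csf1, the growth factor of macrophages, had 108, 81.2 and 109.7 CPM in loss and 67.2, 57.9 and 61.9 CPM in control12 (log2 fold change 0.68 ± 0.15, edgeR adjusted p = 0.00359). Loss libraries 1 and 3 were nearly equal and library 2 was lower, yet all lay above control12, and the call ended in a fit of the 6 libraries alone and with 3 libraries out. In gain8 Csf1 had 57.1, 44.7 and 48.2 CPM and in control8 71.8, 66.6 and 51.7 CPM, a change of -0.34 ± 0.15, and the difference of changes was 1.02 ± 0.21 (edgeR adjusted p = 0.282). Dok2, an adaptor that restrains kinase signalling in blood cells, had 119.7, 51.9 and 56.1 CPM in loss and 15.2, 11.3 and 14.5 CPM in control12 (log2 fold change 2.48 ± 0.25, edgeR adjusted p = 1.56e-05). Fkbp5, a co-chaperone induced by glucocorticoids, had 37.3, 38.4 and 32.8 CPM in loss and 158, 183 and 255 CPM in control12. The 3 loss libraries were nearly equal and far below control12, so the log2 fold change of -2.46 ± 0.42 (edgeR adjusted p = 0.000343) was -2.48 without library 1. Gain8 had 159.8, 48.3 and 59.6 CPM of Fkbp5 and control8 114, 95.5 and 114 CPM, with overlap, and the difference of changes was -2.18 ± 0.57 (edgeR adjusted p = 0.462). Acer2, a ceramidase of the Golgi, had 22.3, 61.6 and 42.5 CPM in loss and 161, 185 and 117 CPM in control12 (log2 fold change -1.87 ± 0.39, edgeR adjusted p = 0.00206).

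Redox genes held some of the same kind. Of 23 genes of oxidant production and defence 11 rose and 2 fell in loss (median 0.49), with 9 and 2 without loss library 1 (median 0.15). In gain8, 9 rose and 3 fell (median 0.82), so the list's median was not larger in loss. Slc7a11 and Srxn1 are described after their values were seen. Slc7a11, the cystine importer, had 26.2, 1.55 and 2.68 CPM in loss and 0.503, 0.267 and 1.05 CPM in control12, a log2 change of 4.04 ± 0.78, and 1.18 ± 0.72 in gain8. Srxn1, which repairs peroxiredoxins, had 586, 75.2 and 131 CPM in loss and 35.3, 35.6 and 32.3 CPM in control12, a log2 change of 2.94 ± 0.47, and 1.24 ± 0.44 in gain8. Hmox1, the haem-degrading enzyme, had 1017, 115 and 159 CPM in loss and 59.4, 51.7 and 54.0 CPM in control12 (log2 fold change 2.97 ± 0.56, edgeR adjusted p = 0.000901), a call that ended in a fit of the 6 libraries alone. In all 3 genes loss library 1 was the highest by far.

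Mast cell genes were higher in a way that rested on loss library 1. Of 14 tested 5 rose and 0 fell, but 1 passed without that library, and the library medians were 3.19, 1.20 and -0.17. Their sum was 504, 166 and 151 CPM in loss and 58.6, 64.0 and 131 CPM in control12. Cpa3, a carboxypeptidase of mast cell granules, had 70.6, 12.1 and 4.66 CPM in loss and 3.72, 3.32 and 10.1 CPM in control12, overlapping in loss library 3. Its call ended without loss library 1. Red cell transcripts went the other way: of 8 tested 7 fell, 1 of them without loss library 1, and 0 fell in gain8. Their sum was 178, 563 and 519 CPM in loss and 1330.0, 2106 and 1129.8 CPM in control12.

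Further lists had fewer calls or calls in both directions. Of 20 genes of the unfolded protein response 8 rose and 3 fell, with 3 and 0 without loss library 1. Sdf2l1, an endoplasmic reticulum chaperone partner, had 68.6, 21.6 and 35.3 CPM in loss and 8.59, 9.55 and 8.41 CPM in control12 (log2 fold change 2.24 ± 0.29, edgeR adjusted p = 3.94e-05), without overlap. Of 20 p53 and senescence genes 7 rose and 2 fell, of 22 genes for the uptake of dying cells 4 rose and 1 fell, and of 24 autophagy genes 4 rose and 2 fell. Of 18 dendritic cell genes 2 rose and 4 fell, of 22 B and plasma cell genes 3 rose and 3 fell, and of 20 complement genes 4 rose and 5 fell. Of 23 cholesterol synthesis genes 4 rose and 0 fell (median 0.61), and 0 rose without loss library 1 (median 0.50). Their library medians were 0.70, 0.52 and 0.54, and 5 rose with 3 libraries out together. Of 23 fatty acid oxidation genes 0 rose and 3 fell, and of 16 genes of triglyceride synthesis 0 rose and 4 fell (median -0.72, -0.45 without loss library 1, with 1 lower call). Of 20 endothelial genes 0 rose and 0 fell (median -0.61), and of 10 mural cell genes 0 rose and 0 fell, with a median of -1.16 and library medians of -1.56, -1.09 and -0.69. Of 8 lymphatic endothelial genes 1 rose and 4 fell, and the 4 were also lower in gain8. Their calls ended without loss library 1 and without control12 library 3, but the list's median was -2.59 with all libraries, -2.24 without loss library 1 and -2.30 without control12 library 3, and the library medians were -3.40, -2.29 and -1.72. Lyve1, a hyaluronan receptor of lymphatic vessels and of some macrophages, had 16.1, 16.8 and 27.02 CPM in loss and 70.5, 51.3 and 62.0 CPM in control12 (log2 fold change -1.62 ± 0.50, edgeR adjusted p = 0.0274), without overlap. Among adipokines Metrnl, a secreted protein also made by macrophages, had 185, 77.5 and 90.6 CPM in loss and 23.8, 20.7 and 18.1 CPM in control12 (log2 fold change 2.50 ± 0.32, edgeR adjusted p = 3.80e-05), and each loss library was called on its own.

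After 8 weeks of normal diet the number of called genes depended on the tool and on single libraries. Maintenance against control16 gave 0 calls with edgeR on all libraries, with a smallest adjusted p of 0.0508 and 3633 genes at an unadjusted p under 0.05, while DESeq2 called 829, RLE scaling 149 and edgeR without the filter on low counts 217. Without maintenance library 2 edgeR called 2299 genes, without library 1 it called 559, without library 3 it called 0, and without control16 library 3 it called 15. The genes higher in gain8 had median differences of 0.01, 0.09 and -0.05 in maintenance libraries 1, 2 and 3, and those lower in gain8 had 0.11, 0.02 and -0.28. Mmp12 was at 139, 191 and 38.3 CPM in maintenance and 8.50, 13.5 and 46.6 CPM in control16. Gpnmb was at 304, 219 and 43.2 CPM in maintenance and 23.1, 31.6 and 54.3 CPM in control16. Cyp2e1 was at 8078, 1665 and 1213 CPM in maintenance and 3735, 3159 and 2356 CPM in control16. Mmp12 and Gpnmb lay above control16 in maintenance libraries 1 and 2 and inside its range in library 3, and Cyp2e1 overlapped. The difference between loss and maintenance in these changes was not tested.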

How the data were processed

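The authors deposited raw read counts per gene and FPKM for 27 libraries of epididymal fat, 3 in each of 9 groups. Per the submitters' processing notes, tools named are Trimmomatic 0.33, TopHat2 2.0.13 and HTSeq 0.6.0 with build mm10 (GRCm38). Reads of overlapping genes cannot be separated, because strand setting and annotation are not given in the sources used here. The deposited counts are whole reads without normalization, in 43616 rows with 43460 names, and the 156 repeated rows hold identical values and were used once. The FPKM, normalized by the authors per length and library, cover 22194 rows and served only as an alternative.

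Counts of 17821 genes that passed edgeR's filterByExpr (minimum count 10, minimum total 15) were scaled by TMM and fitted with a mean per group over all 27 libraries (edgeR 4.0.16, R 4.3.3, quasi-likelihood test, Benjamini-Hochberg adjustment over all genes tested, calls under 0.05). Depth was 26479773 to 32728594 counts per library. The SE after each ± is the absolute log2 fold change divided by the square root of the test's F statistic. It rests on a spread estimated over all groups in the fit, not only those compared. Each loss library was also fitted as a group of 1. The code was tested on simulated data. Alternatives were DESeq2 1.42.0, RLE scaling, testing without the filter, the compared groups alone, a replicate block, a term for Lars2 above 1000 CPM, 3 libraries left out together, limma 3.58.1 on log2(FPKM + 1) and log2(FPKM + 0.1) for genes at 1 FPKM or more in 3 libraries, each library left out in turn, and an adjusted p under 0.01. Replicate numbers of loss and control12 correlated at -0.14, -0.10 and 0.02, so no pairing was used.

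Genes are named by a rule. It takes up to 10 per direction with the largest change called in loss, in gain8 and without loss library 1. For these, loss and control12 were also required not to overlap in CPM, with a minimum mean level and no predicted-gene name. The rule adds up to 8 per direction called in gain8 with under 25% of that change in loss. It adds up to 8 further in loss, also picked for no overlap between loss and control12. It also takes the list members with the smallest adjusted p, and some fixed genes. The text gives all genes of the first part and a selection of the rest, and exceptions are marked. The gene lists, rules and comparisons were chosen with earlier results of these data known. Positions are from GENCODE vM21 (GRCm38), and promoters from RefSeq (GRCm38.p6), matched by symbol.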

Additional observations from a re-analysis of the deposited data

How the results depend on the processing

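The 3564 calls in loss against control12 became 1096 in a fit of the compared groups alone, 1479 with loss replicate 1, control12 replicate 3 and maintenance replicate 3 left out together, 1599 at an adjusted p under 0.01, 368 for loss library 2 alone and 830 for library 3 alone. Leaving out 1 library at a time gave 1185 (without loss library 1) to 4406. The share of calls that were higher was 58.8%, against 72.6% in the compared groups alone, 72.9% with 3 libraries out, 76.6% without loss library 1, 66.5% without control12 library 3, and 76.8% and 76.0% for limma on FPKM with pseudocounts of 1 and 0.1. The 3833 calls in gain8 became 5898 in the compared groups alone and 1842 at 0.01, with 2129 to 3289 on leaving out 1 library. The 2092 shared calls became 950, 1272 and 932 under the compared groups alone, 3 libraries out and 0.01, with 1061 to 2214 on leaving out 1 library. For the difference of changes, with 0 calls, DESeq2 gave 33, 3 libraries out 9, limma on log2(FPKM + 1) 3, and leaving out 1 library 0 to 6. For maintenance, with 0 calls, RLE scaling gave 149, no filter 217, DESeq2 829, limma 1 and 5 with pseudocounts of 1 and 0.1, and leaving out 1 library 0 to 2299. The causes were not tested. With the replicate number as a block, 3265 genes were called in loss, 3669 in gain8, 1921 in both, and 0 in the other comparisons, and since replicate numbers did not pair the samples this is no evidence on the effects.

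Of 228 named genes called in loss, 96 were called in every alternative fit of both groups that held them (the 0.01 threshold and fits of single loss libraries were not counted here), 94 lost the call without loss library 1 and 98 in the compared groups alone. The direction turned in 2 named genes of the male tract, which among the 6 compared libraries stood high only in control12 library 3. Leaving out 1 library gave Dcdc2a values of -12.87 to 2.65 and Cdh16 values of -11.75 to 1.86, the positive ones without that library, and with 3 libraries out they were 0.00 and 2.29. Genes with control12 near 0, such as Gpr50 and Myh15, are limited by depth.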

Other observations

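Genes called in opposite directions were 3 in number, chosen for that and so given as values. Lpin3, of the lipin family of phosphatidate phosphatases, had 6.08, 8.87 and 8.20 CPM in loss and 12.1, 14.9 and 13.3 CPM in control12, with log2 fold changes of -0.80 ± 0.27 in loss and 0.96 ± 0.27 in gain8. Fam222a had 1.82, 3.26 and 2.12 CPM in loss and 4.99, 3.28 and 3.74 CPM in control12, with -0.74 ± 0.26 in loss and 0.93 ± 0.26 in gain8. Xrra1 had 0.279, 0.773 and 0.397 CPM in loss and 1.01, 1.22 and 1.86 CPM in control12, with -1.49 ± 0.49 in loss and 1.52 ± 0.49 in gain8. The groups did not overlap in any of the 3, although loss library 2 lay close to control12 in Fam222a. Their adjusted p in loss (edgeR) were 0.0439, 0.048 and 0.0377 for Lpin3, Fam222a and Xrra1. The Lpin3 call ended in a fit of the compared groups alone and in both limma fits. It also ended without loss library 1, loss library 3 or any single control12 library. For none of the 3 genes did edgeR on all libraries call the difference of changes.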
